A study of Homo sapiens with 21 samples.

Results

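STC2, GDF15, ADM2 and VEGFA are 4 genes for secreted factors of stressed cells, 4 of the 60671 genes of the deposited table and 4 of the 14012 genes that passed a filter on low values. They were taken from the table by their Ensembl identifiers and were chosen by measured values of these same libraries, namely their response to tunicamycin in 3 comparisons with DMSO and their change in DMSO-treated cells between 4 h and 24 h. Their fold changes in those comparisons are therefore given as a description, without a test.

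RNA was sequenced from 21 libraries in 7 groups of 3. OCI-AML3, a leukaemic cell line, was left untreated (0 h) or given the solvent DMSO or tunicamycin, for 4 h or for 24 h. HEK293T, a human embryonic kidney line, was given the same agents for 24 h. The dose of tunicamycin was 1 μg/mL in both lines. HEK293T cells at 4 h and untreated HEK293T cells were not analysed here, so the change with time in culture is known for OCI-AML3 alone. DMSO was the control throughout. The labels do not say whether the replicates of a group were separate cultures, so that p-values measure the spread between these libraries, which may be technical. The libraries held between 13838466 and 19961798 counts, and 3 counts, the limit that a count of 0 allows, correspond to between 0.150 and 0.217 CPM (counts scaled to library size), counting error only. The lines could be told apart by their markers. The 12 blood cell markers summed to between 2480 and 3620 CPM in the OCI-AML3 libraries and to between 13.9 and 21.3 CPM in HEK293T, where PTPRC and MPO were at 0. The 12 HEK293T markers summed to between 407 and 465 CPM in HEK293T and to between 16.7 and 22.9 CPM in OCI-AML3, where PAX2, NEFL and EPCAM were at 0.

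Tunicamycin stops the attachment of N-glycans to new proteins in the endoplasmic reticulum (ER), which then fills with unfolded proteins. The cell answers through the sensors PERK, IRE1 and ATF6. PERK phosphorylates the initiation factor eIF2α, which slows translation while favouring that of the transcription factor ATF4, whereas IRE1 splices the XBP1 mRNA and ATF6 is cleaved to a transcription factor of chaperone genes. The response also reaches outside the cell through secreted proteins. STC2 (stanniocalcin 2) is a secreted glycoprotein hormone that inhibits the protease PAPPA, which cleaves IGF-binding proteins. GDF15 is a distant member of the TGF-β family that signals through GFRAL and its co-receptor RET in the hindbrain. ADM2 (intermedin) is a peptide of the calcitonin family that, like its relative ADM (adrenomedullin), acts on CALCRL with a RAMP protein. VEGFA is the main growth factor of blood vessels, acts on FLT1 and KDR, and is also a classical target of the hypoxia-inducible factors (HIF).

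The genes lie on different chromosomes of GRCh38 (GENCODE release 44). STC2 (ENSG00000113739) lies on the minus strand at chr5:173314723-173328447 and its MANE Select transcript has 4 exons. GDF15 (ENSG00000130513) lies on the plus strand at chr19:18374731-18389176, with 2 exons in that transcript. ADM2 (ENSG00000128165) lies on the plus strand at chr22:50481543-50486440, with 3 exons. VEGFA (ENSG00000112715) lies on the plus strand at chr6:43770184-43786487, with 8 exons. The start sites of the genes were read for the letters bound by the factors of these pathways, on both strands, because the genes were high together after tunicamycin. The RefSeq promoter table (hg38) matched STC2, GDF15 and ADM2 and not VEGFA. In the 250 bases before these 3 start sites there was no match to the C/EBP-ATF element (TGATGNAA, the composite site of ATF4 and CHOP), which 3.14% of all 35116 promoters held. There was also none to the CRE (TGACGTCA, in 1.65%), the UPRE core (TGACGTGG, in 0.61%), the ERSE (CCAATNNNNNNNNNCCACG, in 0.07%) or the HIF core (ACGTG, in 18.51%). Within 1000 bases to each side of the start, a window chosen after seeing the data, the first 4 of these motifs had 5 matches. They are printed 5′ to 3′ on the strand of the gene, with the match in capitals. Distances count from the RefSeq start to the match. For GDF15 that start follows chr19:18386157 and lies well inside the GENCODE span given above.
STC2, 752 bases before the start, chr5:173329148-173329177, minus strand: cctcctggaaaTGATGCAAgtcctgactgt
STC2, 581 bases after the start, intron 1, chr5:173327815-173327844, minus strand: tgctagcagggTGATGAAAtggctggggca
GDF15, 728 bases after the start, intron 1, chr19:18386875-18386904, plus strand: ggttctgaatcTGATGAAAtcgcttgtcaa
ADM2, 334 bases after the start, coding sequence of exon 2, chr22:50481866-50481895, plus strand: gccgccctgggTTGCATCAgcctcctctgc
GDF15, 955 bases before the start, chr19:18385192-18385221, plus strand: tctagaactctTGACGTCAgatgatccacg
The first 4 hold the C/EBP-ATF letters, in ADM2 on the strand opposite to the gene, and the last holds the CRE. Such letters are common. Of all start sites, 22.76% had TGATGNAA and 3.20% had TGACGTCA in a window of this size, so the matches are a description of the sequence and no evidence of binding.

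STC2 was near the limit of detection in OCI-AML3 cells that were untreated or had DMSO for 4 h. The 3 untreated libraries had levels of 1.04, 1.63 and 1.54 CPM, and the DMSO libraries of 4 h had 0.464, 1.79 and 1.26 CPM, which are 7, 28 and 22 counts. After 4 h of tunicamycin the levels were 123, 112 and 118 CPM. The groups were far apart, and the mean of the tunicamycin libraries was 117 ± 5.59 CPM (SD, n = 3) against 1.17 ± 0.667 with DMSO, a fold change of 98.7 and a log2 fold change of 6.63 (SE 0.17). By size of rise STC2 was the third of all 14012 genes tested. The low DMSO counts limit the precision of this fold, and the log2 fold change lay between 6.29 and 7.03 when single libraries were left out or the processing was changed.
At 24 h the contrast of STC2 was smaller from both sides. With DMSO the levels were 10.4, 7.58 and 10.3 CPM, above every library of the 4 h DMSO group, and with tunicamycin they were 54.6, 51.3 and 58.4 CPM, below every library of the 4 h tunicamycin group. The log2 fold change of tunicamycin against DMSO was 2.55 (SE 0.13), that of DMSO at 24 h against 4 h was 2.98 (SE 0.21), and that of tunicamycin at 24 h against 4 h was -1.10 (SE 0.11).
HEK293T cells had STC2 mRNA with DMSO alone. Their DMSO libraries were at 85.2, 85.0 and 82.5 CPM and their tunicamycin libraries at 340, 342 and 329 CPM. The fold change was 4.00 and the log2 fold change 2.0 (SE 0.10). The level in HEK293T with DMSO was above that in OCI-AML3 with tunicamycin at 24 h and below that at 4 h, and no 2 of these groups overlapped. In the order of levels, only untreated and 4 h DMSO OCI-AML3 cells had overlapping libraries.

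GDF15 was low everywhere except in OCI-AML3 cells with tunicamycin. In untreated cells the levels were 1.32, 0.943 and 0.911 CPM, with DMSO for 4 h 0.863, 1.15 and 1.03 CPM, and with DMSO for 24 h 0.788, 0.466 and 0.999 CPM, and these 3 groups overlapped. With tunicamycin the levels were 13.2, 15.3 and 11.2 CPM at 4 h and 7.36, 8.10 and 5.92 CPM at 24 h, above all libraries without it. The log2 fold change was 3.70 (SE 0.23, a fold change of 13) at 4 h and 3.25 (SE 0.26, a fold change of 9.50) at 24 h. GDF15 passed the filter on low values through 9 libraries at 1 CPM or more, of which 6 were OCI-AML3 libraries with tunicamycin, so its passing was itself tied to the rise.
In HEK293T cells GDF15 was near the limit of detection. The DMSO libraries held 2, 6 and 7 counts, or 0.0991, 0.310 and 0.308 CPM, and the tunicamycin libraries 14, 13 and 12 counts, or 0.681, 0.683 and 0.777 CPM. The groups did not overlap and the log2 fold change was 1.53 (SE 0.40). Summed over libraries there were 39 counts with tunicamycin and 15 with DMSO, few enough for counting error to limit the fold change. The level reached with tunicamycin in HEK293T overlapped that of OCI-AML3 cells with DMSO at 24 h.

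ADM2, like GDF15, was highest in OCI-AML3 cells with tunicamycin for 4 h. The untreated OCI-AML3 libraries were at 5.87, 5.60 and 6.72 CPM, those with DMSO for 4 h at 5.57, 6.64 and 4.80 CPM and those with DMSO for 24 h at 6.44, 7.98 and 7.84 CPM. With tunicamycin ADM2 was at 104, 98.0 and 96.2 CPM at 4 h and at 42.9, 42.4 and 38.1 CPM at 24 h, without overlap with any other group. The log2 fold change was 4.13 (SE 0.11, a fold change of 17.6) at 4 h and 2.47 (SE 0.11, a fold change of 5.53) at 24 h. Between 4 h and 24 h of DMSO it was 0.39 (SE 0.13), below the size of a call, and between 4 h and 24 h of tunicamycin -1.27 (SE 0.09).
In HEK293T cells ADM2 was nearly absent with DMSO, at 0.297, 0.413 and 0.308 CPM or 6, 8 and 7 counts, and was at 4.62, 4.78 and 5.50 CPM with tunicamycin. The fold change was 14.4 and the log2 fold change 3.84 (SE 0.21). Its level with tunicamycin in HEK293T overlapped that of OCI-AML3 cells with DMSO for 4 h. At 24 h the lines differed in level by a log2 fold change of -4.38 (SE 0.20, HEK293T against OCI-AML3) with DMSO and of -3.01 with tunicamycin.
ADM2 overlaps exons of SBF1 on the opposite strand, and whether counting used the strand is not given in the sources used here. SBF1 was at 127 to 172 CPM in the group means. Its log2 fold change with tunicamycin was -0.19 at 4 h (adjusted p = 0.11), -0.30 at 24 h (adjusted p = 0.011) and -0.09 in HEK293T (adjusted p = 0.51). Whether reads of SBF1 were counted for ADM2 was not tested.

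VEGFA was well above the limit of detection in every group. The untreated OCI-AML3 libraries were at 29.4, 27.5 and 30.6 CPM and those with DMSO for 4 h at 31.6, 35.8 and 32.9 CPM. After 4 h of tunicamycin the levels were 146, 151 and 151 CPM, a fold change of 4.48 and a log2 fold change of 2.16 (SE 0.09). With DMSO for 24 h VEGFA was at 80.9, 68.9 and 86.3 CPM, and with tunicamycin for 24 h at 184, 184 and 231 CPM, so that the control had moved up as well. The log2 fold change was 1.35 (SE 0.09) for tunicamycin against DMSO at 24 h and 1.23 (SE 0.09) for DMSO at 24 h against 4 h. VEGFA differed from the other 3 genes in that tunicamycin at 24 h was above tunicamycin at 4 h, with a log2 fold change of 0.42 (SE 0.08), whereas those of STC2, GDF15 and ADM2 were -1.10, -0.90 and -1.27.
In HEK293T cells VEGFA was at 50.3, 51.5 and 49.3 CPM with DMSO and at 139, 133 and 128 CPM with tunicamycin, a fold change of 2.65 and a log2 fold change of 1.41 (SE 0.09). All 7 groups were separate in the order of their levels, from untreated OCI-AML3 up to OCI-AML3 with tunicamycin for 24 h. The antisense gene ENSG00000272114 overlaps VEGFA and held at most 10 counts in a library.

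**Figure D1:**
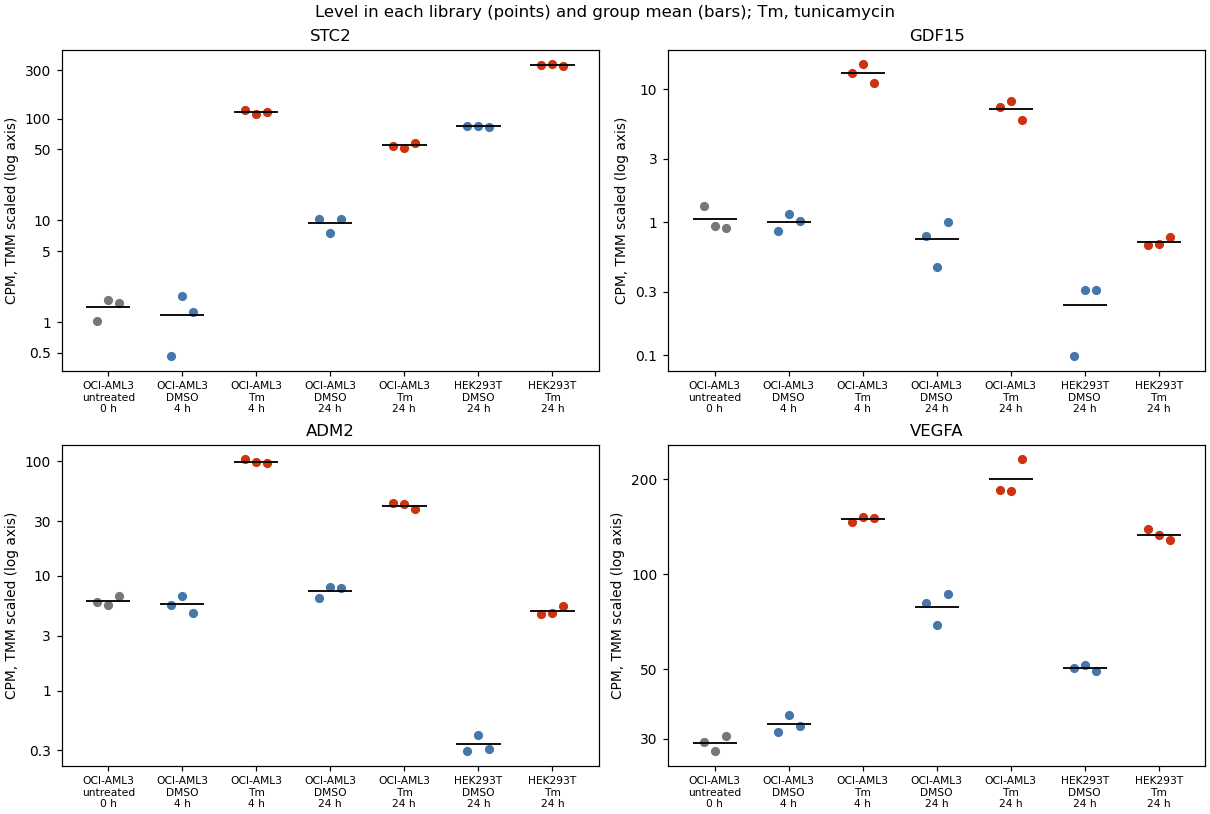
Level of STC2, GDF15, ADM2 and VEGFA in CPM (vertical log axes, scaled by TMM) in each library (points) of the 7 groups, with group means as bars, grey for untreated, blue for DMSO and red for tunicamycin (Tm). In OCI-AML3 every tunicamycin library lies above the DMSO libraries of its time, and the DMSO libraries of STC2 and VEGFA are higher at 24 h than at 4 h.

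A gene was called when its p, adjusted over all genes tested by Benjamini-Hochberg, was 0.05 or less and its log2 fold change was beyond 1 in either direction. All 4 genes passed this rule upwards in the 3 comparisons of tunicamycin with DMSO, which is how they were selected, while of all genes tested 3.45% were called higher at 4 h, 4.05% at 24 h and 1.58% in HEK293T. The comparison of DMSO at 24 h with 4 h also belongs to the values they were chosen by. There STC2 and VEGFA were above the size and threshold of a call and GDF15 (log2 fold change -0.45, SE 0.33) and ADM2 were not, and 3.48% of all genes were called higher and 0.664% lower. These counts describe the choice and nothing is read from them. The DMSO time comparison shares its libraries with both tunicamycin comparisons of OCI-AML3, in which they are the controls.
The change with tunicamycin at 24 h was smaller than at 4 h for STC2 by -4.08 on the log2 scale (SE 0.23), for ADM2 by -1.67 (SE 0.15) and for VEGFA by -0.81 (SE 0.12). For GDF15 the difference was -0.45 (SE 0.39), little more than its error. Between the lines, the change in HEK293T minus that in OCI-AML3 at 24 h was 1.38 (SE 0.27) for ADM2, -0.55 (SE 0.16) for STC2, -1.72 (SE 0.53) for GDF15 and 0.06 (SE 0.12) for VEGFA. ADM2 thus had the greater relative change in HEK293T, where it started from a few counts, and STC2 and GDF15 had it in OCI-AML3.

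**Figure D2:**
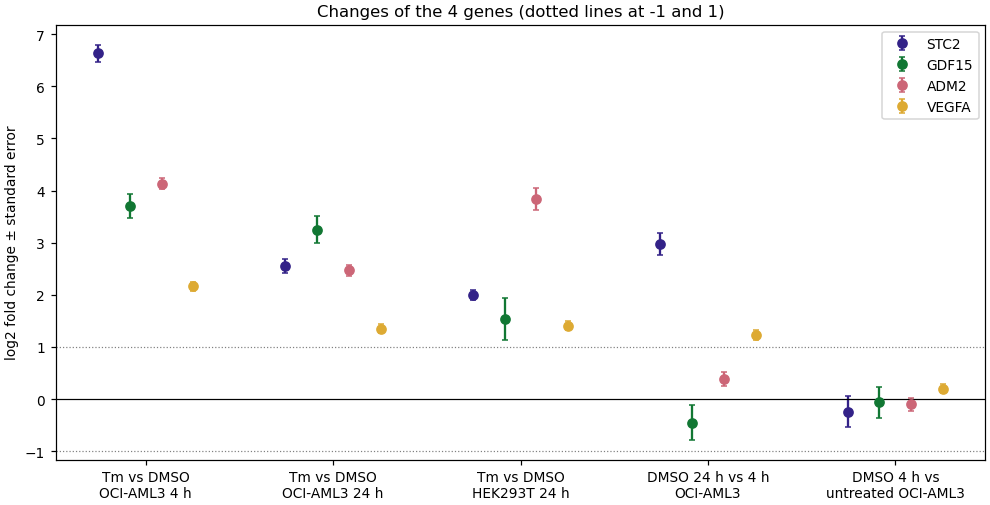
Log2 fold change (vertical axis) with its standard error (bars) of each of the 4 genes in 5 comparisons. All points of the 3 tunicamycin comparisons lie above 1, from 1.35 for VEGFA at 24 h to 6.63 for STC2 at 4 h, and in the DMSO time comparison those of STC2 and VEGFA do.

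The comparison of DMSO at 4 h with untreated cells asks whether the solvent and the first hours moved the genes. The rule names the levels of both groups, though not this comparison, so the values of the 4 genes are again a description. None of the 14012 genes tested was called (0% called higher and 0% called lower), while 21 were called higher and 19 lower when every gene with at least 1 count in any library was tested. At an unadjusted p under 0.05 there were 1160 genes by edgeR's quasi-likelihood test, 1186 by limma voom and 1130 by DESeq2. Some of the genes tested fall under that p without any change. At an adjusted p of 0.05 or less edgeR and limma voom had 0 genes. DESeq2 had 19, none of them beyond the size of a call. The log2 fold changes were -0.24 for STC2 (SE 0.30), -0.06 for GDF15 (SE 0.30), -0.10 for ADM2 (SE 0.13) and 0.20 for VEGFA (SE 0.09). The libraries of the groups did not overlap for VEGFA and did for the other 3 genes.

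Levels of different genes can be set side by side per length only, here as CPM per kilobase of the MANE Select transcript (RPKM). In untreated OCI-AML3 cells VEGFA led at 8.08 RPKM, followed by ADM2 at 1.44, GDF15 at 0.883 and STC2 at 0.33 RPKM. After 4 h of tunicamycin VEGFA stood at 41.4 ± 0.862, STC2 at 27.6 ± 1.31, ADM2 at 23.6 ± 0.981 and GDF15 at 11 ± 1.74 RPKM (SD, n = 3). STC2 had moved from the lowest to the second place. In HEK293T with tunicamycin STC2 led at 79.2 RPKM, before VEGFA at 37.0, and ADM2 and GDF15 were at 1.18 and 0.595 RPKM. The place of VEGFA depends on the length used, since with all annotated exons joined it would be at 10.4 RPKM at 4 h, below STC2 and ADM2 at 23.2 RPKM each.

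The partners of the 4 factors were read from a list of 25 receptors, relatives and substrates. Of these 10 were tested, and genes expressed in HEK293T alone, with its 6 libraries, could not pass the filter. Several receptors of the factors were at or near 0 in OCI-AML3 cells. GFRAL, the receptor of GDF15, had 0 counts in every library, whereas its co-receptor RET was at a mean of 50.7 CPM in untreated OCI-AML3 cells and at 3.54 CPM in HEK293T with DMSO. RET was not called in any of the 5 comparisons, with log2 fold changes between -0.24 and 0.32. CALCRL, the receptor of ADM2, had at most 2 counts in an OCI-AML3 library and was at 1.26 ± 0.117 CPM with DMSO and 1.63 ± 0.267 CPM with tunicamycin in HEK293T. Its partner RAMP1 was at 5.77 ± 0.743 and 7.86 ± 1.02 CPM there and had at most 4 counts in OCI-AML3. RAMP2 was at 0.799 ± 0.0721 and 0.874 ± 0.366 CPM in HEK293T and had up to 13 counts in an OCI-AML3 library. RAMP3 had at most 2 counts in a library. KDR, the main receptor of VEGFA on blood vessels, had at most 1 count in OCI-AML3 and at most 12 counts in HEK293T. These levels were not tested. PAPPA, the target of STC2, had at most 4 counts in a library. Among the IGF-binding proteins, IGFBP4 was at 220 ± 14.6 CPM with DMSO for 24 h in OCI-AML3 cells and fell with tunicamycin by 1.17 on the log2 scale (SE 0.11, adjusted p = 1.9e-08). IGFBP5 rose in the same comparison by 1.71 (SE 0.19, adjusted p = 2.1e-07), and rose between 4 h and 24 h of DMSO by 1.22 (SE 0.24, adjusted p = 0.00033), although without DMSO 4 h replicate 1 the latter change was 1.00 and no longer a call. With tunicamycin at 4 h the log2 fold change of IGFBP5 was -0.87 (SE 0.30, adjusted p = 0.025), between -1.31 and -0.62 over the alternatives, and 2 of 14 alternatives called it lower.
Of the VEGF family, VEGFC rose with tunicamycin in OCI-AML3 cells, by 1.08 at 4 h (SE 0.13, adjusted p = 4.6e-07) and by 1.10 at 24 h (SE 0.12, adjusted p = 2.1e-07), from means of 6.97 and 8.94 CPM with DMSO. The change at 4 h was 0.99 without DMSO 4 h replicate 2, just under the size of a call. VEGFB was not called in any comparison, and its change of 0.92 in HEK293T (SE 0.11, adjusted p = 7.7e-07) missed the size required. PGF fell in HEK293T by 1.22 (SE 0.26, adjusted p = 0.0012), from 2.61 to 1.09 CPM, and by 0.96 without tunicamycin replicate 3, where it was no longer called. The receptor FLT1 rose between 4 h and 24 h of DMSO by 3.48 (SE 0.52), from between 0 and 6 counts to between 21 and 41 counts a library. FLT1 would have missed the filter on low values without the OCI-AML3 libraries of 24 h, so the change is given for its size. This change was 2.93 without DMSO 4 h replicate 2 and 4.23 without DMSO 4 h replicate 1. With tunicamycin at 4 h the log2 fold change of FLT1 was 1.61 (adjusted p = 0.056), between 1.05 and 2.37 over the alternatives, and 4 of 14 alternatives called it. The co-receptor NRP1 was not called in the 5 comparisons, but its change at 24 h, 0.87, was 1.29 and a call without DMSO 24 h replicate 1.
Counted over the 10 partners tested, 2 were called higher at 4 h and 2 at 24 h, where 1 was called lower, and 1 was called lower in HEK293T. Of the 2 at 4 h, STC1 would have missed the filter on low values without the tunicamycin libraries, so nothing is read from that count. Of all genes 3.45% were called higher and 1.47% lower at 4 h, 4.05% and 2.26% at 24 h, and 1.58% and 0.55% in HEK293T. Over the DMSO time (24 h against 4 h) 4 were called higher and 0 lower, against 3.48% and 0.664% of all genes. Of these 4, STC1, ADM and FLT1 would not have passed the filter on low values without the OCI-AML3 libraries of 24 h, in which they were high, so their calls are tied to the filter and the count supports nothing.

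STC1 and ADM, the close relatives of STC2 and ADM2, rose with time in DMSO. STC1 was at a mean of 0.780 CPM with DMSO for 4 h and of 58.1 CPM with DMSO for 24 h, a log2 fold change of 6.23 (SE 0.25). With tunicamycin at 24 h STC1 was at 46.8 CPM (log2 fold change -0.31, SE 0.15, adjusted p = 0.10). At 4 h it rose by 1.17 (SE 0.39), a call that was lost with limma voom and when single libraries were left out. ADM, also a HIF target, held between 0 and 4 counts a library with DMSO for 4 h and between 149 and 188 counts with DMSO for 24 h. This log2 fold change of 6.30 (SE 0.42) depends on the few counts at 4 h. It was 5.68 without DMSO 4 h replicate 3 and 6.92 without DMSO 4 h replicate 2. With tunicamycin ADM did not pass the rule at either time or in HEK293T, where ADM2 was called. As STC1 and ADM passed the filter through the groups in which they were high, these changes are given for their size.

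**Figure D3:**
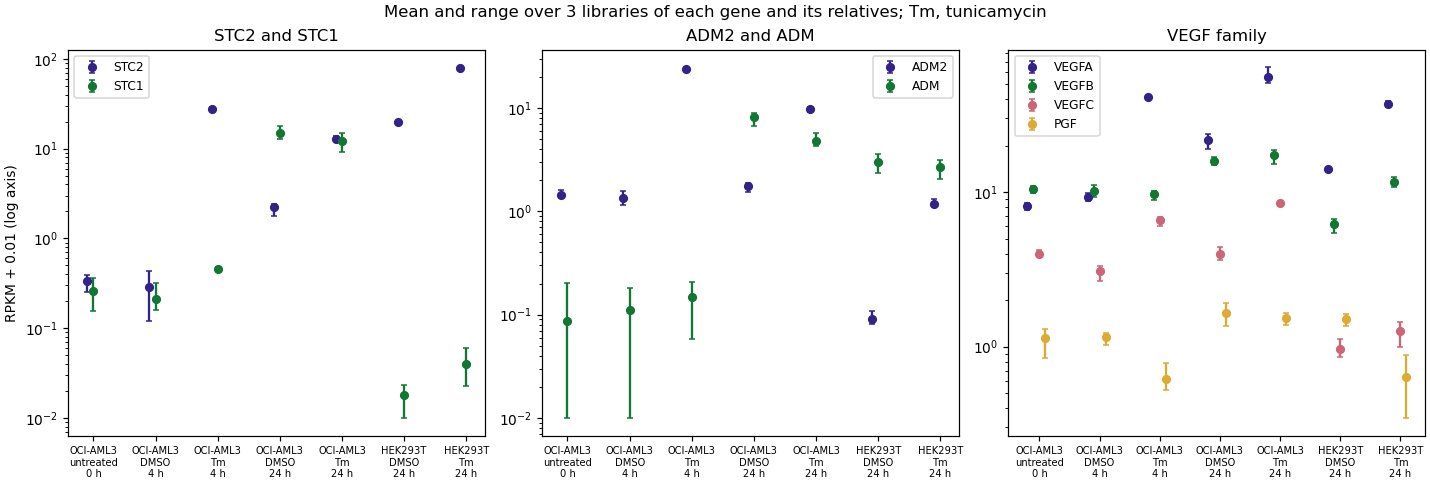
Mean (points) and range over 3 libraries (bars) of each gene and its relatives per kilobase (RPKM + 0.01, vertical log axes) in the 7 groups. STC1 and ADM are high in OCI-AML3 at 24 h with or without tunicamycin (Tm), whereas ADM2 is high with tunicamycin at both times.

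The pathways that are known to act on these genes were read from lists of their other targets, which were compared by counts and medians with all genes tested, whose median log2 fold change lay between -0.02 and -0.01 in every comparison. Of 31 PERK/ATF4 genes tested, 28 rose at 4 h, 15 at 24 h and 22 in HEK293T, none fell, and the medians were 1.82, 0.97 and 1.36, where 3.45%, 4.05% and 1.58% of all genes were called higher. NUPR1 is counted in each, although it passed the filter through the tunicamycin libraries alone. The farthest at 4 h were CHAC1 (5.90), an enzyme that degrades glutathione, DDIT4 (5.44), an inhibitor of mTORC1, and DDIT3 (5.36), which encodes CHOP. At 24 h they were NUPR1 (5.08), DDIT3 (4.33) and the cystine transporter SLC7A11 (3.78), and in HEK293T NUPR1 (5.21), CHAC1 (3.76) and DDIT3 (3.69). STC2 at 4 h was thus above each gene of this list, whereas at 24 h and in HEK293T it was well within it. Over the DMSO time 2 of the 31 rose, DDIT4 (4.37) and VLDLR (1.64), where 3.48% of all genes were called higher, and the median was -0.02.
Of 24 ATF6/XBP1 genes, 20 rose at 4 h, 18 at 24 h and 20 in HEK293T, with medians of 1.93, 2.33 and 1.66, against the same 3.45%, 4.05% and 1.58% of all genes. They included DNAJB9 (3.73), HSPA5 (3.29), the main chaperone of the ER lumen, and SDF2L1 (3.11) at 4 h, DERL3 (4.05), HSPA5 (3.52) and MANF (3.42) at 24 h, and DERL3 (3.49), HERPUD1 (3.33) and HSPA5 (2.7) in HEK293T. Over the DMSO time none of the 24 was called, where 3.48% of all genes were called higher and 0.664% lower, and the median was -0.14. The median of this list was higher at 24 h than at 4 h, whereas that of the PERK/ATF4 list was lower, without a test of the difference.
The HIF targets were read from 24 tested genes without VEGFA. Over the DMSO time 13 rose and none fell, where 3.48% of all genes were called higher, with a median of 1.09 beside the 1.23 of VEGFA. EGLN3 (6.67), a hydroxylase of HIF, ADM (6.30) and PFKFB4 (2.41), an enzyme of glycolysis, were the farthest, and of the 13 EGLN3 and ADM would have missed the filter without the libraries of 24 h. With tunicamycin 1 of the 24 rose at 4 h, the glucose transporter SLC2A3 (1.10), a share near the 3.45% of all genes. At 24 h EPAS1 (1.14), which encodes HIF-2α, rose, while BNIP3 (-1.28) and PGK1 (-1.02) fell, against 4.05% of all genes called higher and 2.26% lower. In HEK293T none was called, against 1.58% of all genes called higher and 0.55% lower. The medians with tunicamycin were 0.04, -0.24 and -0.12.
The p53 targets, of which GDF15 is also known to be one, were read from 23 other genes. Of these 1 rose and 2 fell at 4 h, none was called at 24 h and 1 rose in HEK293T. The medians were -0.18, 0.05 and -0.10. Of all genes 3.45% were called higher and 1.47% lower at 4 h, 4.05% and 2.26% at 24 h, and 1.58% higher in HEK293T. GADD45A rose at 4 h (2.02) and in HEK293T (1.61), while PLK3 (-1.08) and EDA2R (-1.31) fell at 4 h. The CDK inhibitor CDKN1A (1.16) was the gene called over the DMSO time, where 3.48% of all genes were called higher and 0.664% lower.
Among 22 other secreted factors tested, 9 rose at 4 h, 7 at 24 h and 4 in HEK293T, where LIF (-1.02), a cytokine, was called lower. Of all genes 3.45%, 4.05% and 1.58% were called higher, and 0.55% were called lower in HEK293T. The medians were 0.50, 0.61 and 0. Of the 9 and the 7, 3 and 2 would have missed the filter without the tunicamycin libraries. SDF2L1 (3.11), MANF (2.81) and IGFBP3 (2.72) led at 4 h and IGFBP3 (4.27), MANF (3.42) and CRELD2 (3.27) at 24 h. In HEK293T they were MANF (2.31), SDF2L1 (2.05) and NUCB2 (1.94). SDF2L1, MANF and CRELD2 are also in the ATF6/XBP1 list and are counted in both, and SDF2L1 encodes a protein that stays in the ER. Over the DMSO time 6 rose, where 3.48% of all genes were called higher, led by ADM (6.30) and STC1 (6.23), and 4 of them would have missed the filter without the libraries of 24 h. At 4 h STC2, GDF15 and ADM2 stood above each of these secreted factors, and VEGFA was within their range. No gene of any of these lists was called between untreated cells and DMSO at 4 h.

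**Figure D4:**
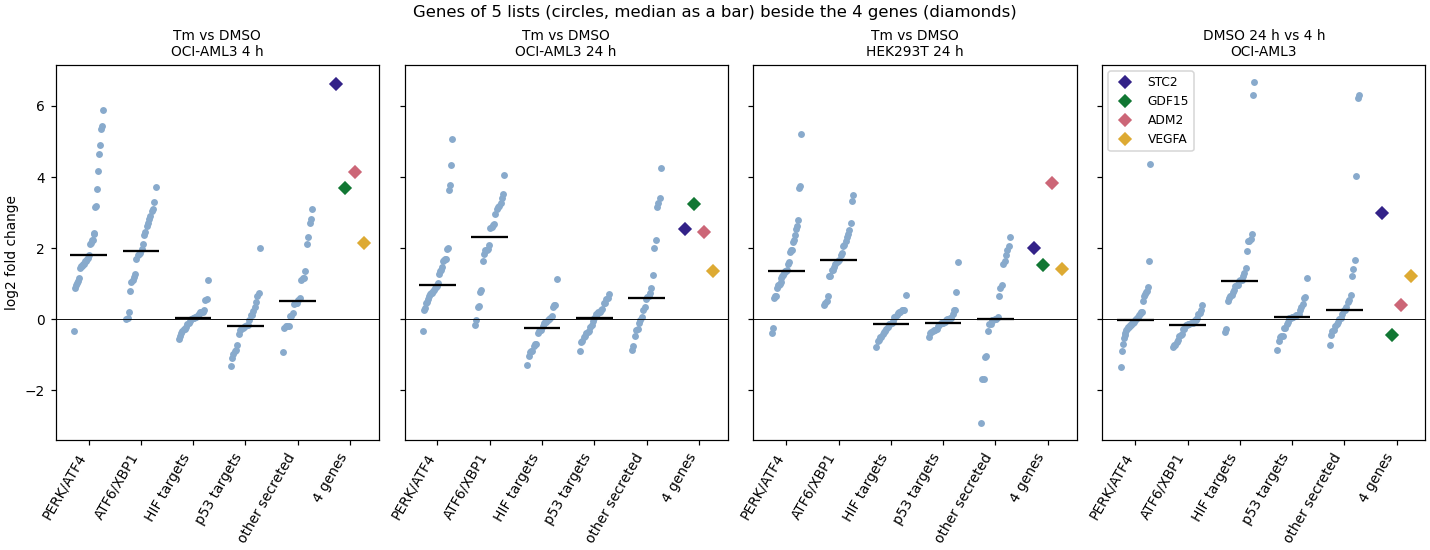
Log2 fold change (vertical axis) of the tested genes of 5 lists (circles, with the median as a bar) and of STC2, GDF15, ADM2 and VEGFA (diamonds) in 4 comparisons. The HIF targets have a median of 1.09 over the DMSO time and of 0.04, -0.24 and -0.12 with tunicamycin (Tm), and the reverse holds for the PERK/ATF4 and ATF6/XBP1 lists.

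The genes whose log2 CPM ran most like each factor were found by Pearson's r over the libraries, which share treatments and are no independent points. Between the 4 factors r lay between 0.80 (GDF15 and VEGFA) and 0.97 (GDF15 and ADM2) over the 15 OCI-AML3 libraries, which the choice of genes that were all high with tunicamycin had fixed. Over all 21 libraries STC2 separated from GDF15 (r = 0.203) and ADM2 (r = 0.104), which have low levels in HEK293T, while GDF15 and ADM2 stayed together (r = 0.94).
In OCI-AML3 the genes most like ADM2 were HERPUD1 (r = 0.995), CHAC1 (0.994), TMEM39A (0.991), TRIB3 (0.99) and DNAJB9 (0.989), of which 4 are in the PERK/ATF4 or ATF6/XBP1 list. Those most like GDF15 were SLC33A1 (0.985), HSPA5, FICD, DNAJB9 and DDIT3 (0.984 each). Those most like STC2 were IL21R-AS1 (0.985), IRF2BP2 (0.982), ZC3H6 (0.977), ZFAND3 (0.976) and BTG1 (0.973), none of them in a list. Those most like VEGFA were TNFRSF10B (0.991), a death receptor, PNRC1 (0.987), IL21R (0.983), EDEM1 (0.982) and ALAS1 (0.979).
Over the 21 libraries AARS1, the alanyl-tRNA synthetase, was among the 5 nearest genes of both GDF15 (r = 0.973) and ADM2 (r = 0.963). The nearest gene of ADM2 was PCK2 (0.981), a mitochondrial enzyme of gluconeogenesis, that of STC2 was TSC22D3 (0.966) and that of VEGFA was AJUBA (0.976). The others were MB21D2, KIZ, RNF19B and BRD2 for STC2, LINC00662, CSNK1A1, WARS1 and PXK for GDF15, HERPUD1, CDK2AP2 and GTPBP2 for ADM2, and NFIL3, ENSG00000269926, EIF1 and DDIT4 for VEGFA, with r between 0.928 and 0.965. With Spearman's rho in place of Pearson's r, between 0 and 1 of the 5 genes of a set were named again, so the ranking of single neighbours is loose.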

How the data were processed

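Polyadenylated RNA of 21 libraries was sequenced by the authors as paired-end reads, trimmed with seqtk, aligned to GRCh38 with STAR and counted with RSEM on Ensembl release 101. The values deposited by the authors are RSEM expected counts, neither scaled nor filtered, of which 3.54 to 4.22% per library were not whole numbers. They were rounded here. A gene was kept if 8 or more libraries reached 1 CPM (14012 genes). Counts were scaled by TMM (factors 0.891 to 1.15) and fitted with edgeR's quasi-likelihood test (edgeR 4.0.16 in R 4.3.3), 1 mean per group, and p-values were adjusted over all of them by Benjamini-Hochberg. The model was tested on simulated data. Levels are TMM-scaled CPM. Lengths are from GENCODE release 44, and the log2 CPM used for correlations have a prior count of 2.

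Alternatives were limma voom (limma 3.58.1), DESeq2 (1.42.0), its size factors, library sizes without TMM, other filters, the compared groups alone, a replicate block and each library left out. The genes and all lists were chosen with earlier results of these data known. Named are the 4 genes, the tested partners, up to 3 called genes a list, direction and comparison, and the 5 genes nearest to each factor. Untested partners named for their levels (GFRAL, CALCRL, RAMP1, RAMP2, RAMP3, KDR and PAPPA) were chosen after their values were seen. A gene of these lists is not reported here by name. Promoters are from RefSeq (hg38). Isoform data were left out, since the comparisons are of whole genes. The plotting tool was matplotlib 3.10.9.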

Additional observations from a re-analysis of the deposited data

Results flagged for a closer look

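Among the 10 tested partners of the 4 factors, 5 responded differently to tunicamycin at the 2 times in OCI-AML3 by the interaction term of edgeR's quasi-likelihood test, at an adjusted p of 0.05 or less and without a limit on size. Of all genes 15.1% were higher and 20.3% lower by this rule, so the count is not particular to the partners, and RET and IGFBP4 are under the log2 size of 1 that a call requires. The change at 24 h minus that at 4 h was 2.59 on the log2 scale for IGFBP5 (SE 0.36, adjusted p = 1.1e-05), 1.23 for NRP1 (SE 0.34, adjusted p = 0.0074), 0.39 for RET (SE 0.12, adjusted p = 0.014) and -0.70 for IGFBP4 (SE 0.16, adjusted p = 0.0015). For STC1 it was -1.48 (SE 0.42). STC1 passed the filter on low values only through groups in which it was high, so its value is a description.

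Between the lines at 24 h, the change in HEK293T minus that in OCI-AML3 differed for 6 of them, where 15.9% of all genes were higher and 10.9% lower. VEGFB and VEGFC are under the log2 size of 1. It was 1.28 for IGFBP4 (SE 0.25, adjusted p = 0.00059), 0.77 for VEGFB (SE 0.15, adjusted p = 0.00047), -0.72 for VEGFC (SE 0.21, adjusted p = 0.015), -1.12 for PGF (SE 0.36, adjusted p = 0.024), -1.29 for NRP1 (SE 0.28, adjusted p = 0.0016) and -2.01 for IGFBP5 (SE 0.26, adjusted p = 7e-06). IGFBP4 and IGFBP5 thus differed in opposite directions, both between the times and between the lines.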

How the results depend on the processing

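STC2, GDF15, ADM2 and VEGFA stayed on the same side of a call in 280 of 280 combinations of gene, comparison and alternative, which describes values they were chosen by and supports nothing. Of 700 for their partners 684 did, while 8 lost and 8 gained a call. Of 840 counts of list genes called, 34 moved by more than 1.5 times. Without TMM the median of all genes over the DMSO time was -0.14 in place of -0.02, and the difference of VEGFA between the lines was -0.06 in place of 0.06. The low counts of GDF15 in HEK293T limit its difference between the lines, which lay between -2.12 (without HEK293T DMSO replicate 1) and -1.50 when single libraries were left out.

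Counts over all genes depended more on the filter. With every gene of at least 1 count in any library, 365 were called lower at 4 h (main value 206), 905 higher and 496 lower at 24 h (568 and 317), 183 lower in HEK293T (77), 234 lower over the DMSO time (93), and 21 higher and 19 lower between DMSO at 4 h and untreated cells (0 and 0). With 1 CPM in 3 libraries, 129 were lower in HEK293T and 145 over the DMSO time, and without TMM the latter were 165. With single libraries left out they were between 79 and 143, the highest without DMSO 4 h replicate 1, and those higher between DMSO at 4 h and untreated cells between 0 and 1.

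Same-numbered libraries deviated together weakly or not at all (r between -0.139 and 0.199, 3 of 15 pairs over 0.1). Of 30, 15 correlated best with their own number. In HEK293T all 6 did, with r between 0.0439 and 0.119, a hint of pairing from the data only. A replicate block called 485 higher and 205 lower at 4 h, 569 and 320 at 24 h, 219 and 77 in HEK293T, and 489 and 95 over the DMSO time.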
